A study of Mus musculus with 12 samples.

Results

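The genes examined encode subunits of the receptors for the transmitters GABA and glutamate. They were chosen by gene symbol, with earlier results of these data known: the GABA-A subunits (18 genes), the AMPA (4), kainate (5) and NMDA (7) subunits of the glutamate-gated channels, the delta subunits (2), and metabotropic glutamate receptors (6). In all, 42 genes were examined of the 41388 in each file. The rule also took out by name 3 further genes of these families. Gabra6 and metabotropic glutamate receptor genes are among them, and they were not analysed here. RNA was sequenced from the brains of 8 mice that carried floxed alleles of Bmal1, the clock transcription factor gene whose official symbol is Arntl. Cre-positive mice also carried ALDH1L1-CreERT2, a tamoxifen-dependent Cre recombinase under the control of a gene active in astrocytes, and are called aKO. Cre-negative mice with the same floxed alleles are called WT. All mice, on a C57BL\6 background and under equal hours of light and dark, were dosed daily with 2 mg of tamoxifen over 5 days when 2 months old and their brains were collected when they were 7 months old. Magnetic beads against ACSA-2, a surface epitope of astrocytes, divided each digested brain into isolated astrocytes and the unbound cells, called flowthrough. Isolated astrocytes came from 3 WT animals (numbers 201, 202 and 265) and 5 aKO animals (203, 205, 208, 221 and 222), and flowthrough came from WT 201 and 202 and aKO 203 and 205, so that 4 animals gave both fractions.

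GABA-A receptors are chloride channels built from alpha, beta and gamma or other subunits, and the choice of subunit sets where a receptor sits and how it responds. AMPA, kainate and NMDA receptors are cation channels opened by glutamate, whereas the metabotropic receptors act through G proteins. Neurons use these receptors at synapses. Astrocytes also carry GABA-A and AMPA receptors, and Bergmann glia, the radial astrocytes of the cerebellum, are known for AMPA receptors. Cells of the oligodendrocyte lineage, and their precursors above all, carry AMPA, kainate and NMDA subunits too.

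Several properties of the libraries bear on what follows. Total counts ranged from 21816637 to 62655238 in astrocytes and from 33019572 to 53868165 in flowthrough, and the mitochondrial share of counts was 22.9% ± 8.33 (SD, n = 8) for astrocytes against 7.69% ± 3.74 (SD, n = 4) for flowthrough. Ttr, a choroid plexus marker, took 7.18% ± 5.47 (SD, n = 8) of astrocyte counts and 19.5% ± 9.81 (SD, n = 4) of flowthrough counts. Its share was 32.1% in flowthrough aKO 205. The library totals used for scaling include both. The astrocyte library of animal 202 is WT by its title but knockout by its genotype field, and was kept as WT. All flowthrough titles carry an unexplained letter b, so that what it marks cannot be told apart from the fraction. Arntl, counted over the whole gene, had 3.50, 6.80 and 2.13 CPM (counts scaled to a common library total, as deposited) in WT astrocytes and 10.5, 25.01, 8.99, 12.5 and 5.05 CPM in aKO astrocytes, a count that does not check the deletion of part of the gene. Markers of several cell types were counted in the isolated fraction. Of 15 astrocyte markers 10 passed the test as higher in the isolated fraction, but so did 10 of 12 oligodendrocyte markers, and 12 pan-neuronal markers summed to 0.130% ± 0.0713 (SD, n = 8) of the counts there against 0.0345% ± 0.0356 (SD, n = 4) in flowthrough. Microglial markers summed to 0.0587% ± 0.0154 (SD, n = 8) in astrocytes against 0.950% ± 0.204 (SD, n = 4) in flowthrough, and 11 of 11 passed the test as lower in astrocytes. In bulk samples such as these, fewer cells of a type and less RNA per cell cannot be told apart.

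The receptor subunit genes as a whole were more abundant in isolated astrocytes than in flowthrough. Summed over the 42 genes, they took 545, 857 and 394 CPM in WT astrocytes and 874, 670, 446, 863 and 406 CPM in aKO astrocytes. In flowthrough the sums were 29.7 and 255 CPM in WT and 105 and 42.0 CPM in aKO, so that the fractions did not overlap, and WT 202 lay far above the other 3 flowthrough libraries. By the quasi-likelihood test of edgeR, Benjamini-Hochberg adjusted over 20637 genes, 22 of the 38 subunit genes tested were higher in astrocytes at an adjusted p under 0.05 and 0 were lower, where 8.51% of all genes tested were called higher and 8.52% lower. An unadjusted p under 0.05 was reached by 30 of the 38, or 78.9%, against 32% of all genes. The median log2 fold change was 1.93 over the 38 genes and 0.07 over all genes, and 38 of 38 estimates were above 0 against 53.1% of all genes. The lowest astrocyte library lay above the highest flowthrough library for 17 of the 38 (44.7%, against 6.34% of all genes). The reverse held for 0 (4.51% of all genes). In the 4 animals with both fractions, 30 of the 38 had a higher CPM in the astrocyte library each time. All 22 called genes were among them, a direction largely set by calling them from these same libraries. The share over all genes was not counted. The 4 genes that failed the filter on low counts, Gabrp, Gabrr3, Grin3b and Grm6, had at most 20 counts in any astrocyte library and at most 13 in any flowthrough library. That filter ran over all libraries together, so a gene could pass it on the counts of a single fraction.

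**Figure D1:**
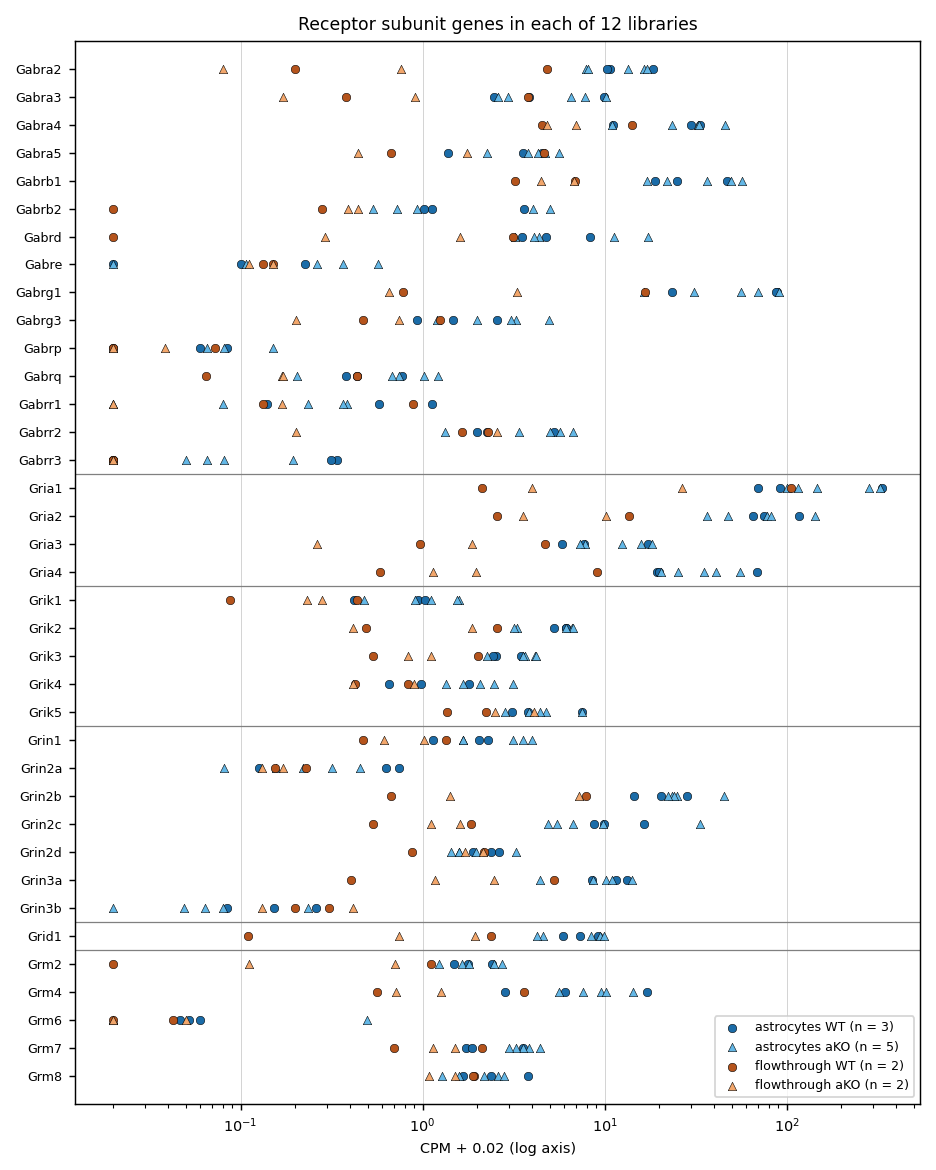
Each row is a receptor subunit gene and each point 1 library, on a log axis of CPM plus 0.02 (circles WT, triangles aKO, blue astrocytes, brown flowthrough). For 13 of the 33 tested genes drawn, the 8 astrocyte libraries lie to the right of all 4 flowthrough libraries, and the WT and aKO astrocyte libraries are interleaved in every row that was tested.

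The calls depended on single flowthrough libraries. Without flowthrough WT 201 there were 13 subunit genes called higher (2.7% of all genes), without flowthrough aKO 205 there were 9 (3.45%), and without flowthrough WT 202 there were 26 (10.4%), each of 41 tested. Fitting the 8 libraries that came in pairs from 4 animals with the animal as a block gave 25 subunit genes called higher, among them all 22, against 14 in the same libraries with no block, while the share of all genes called higher was 15.9% with the block and 7.67% with none. Of 22 alternative analyses, all kept the calls of Gabra2, Gabrb1, Gabrg1, Gria2, Gria3, Gria4, Grin2c and Grm4. Gria1 and Grik3 passed in the fewest, 8 and 9 of 22. Besides the left-out libraries given with each gene below, limma voom ended the calls of Gabra3, Gabrb2 and Grik3. Counting astrocyte library 202 as aKO ended those of Gabra3, Gria1 and Grik3. Flowthrough 202, from the same animal, stayed WT in that alternative and was not tried as aKO. In the 8 paired libraries with no block, Gabra3, Gria1, Grik3 and Grin2b were among the genes not called. Scaling by DESeq2's size factors ended the calls of Gria1 and Grik3, testing with no filter that of Grik3, and leaving out mitochondrial genes and Ttr, or aKO 222 and WT 265 together, that of Gria1.

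**Figure D2:**
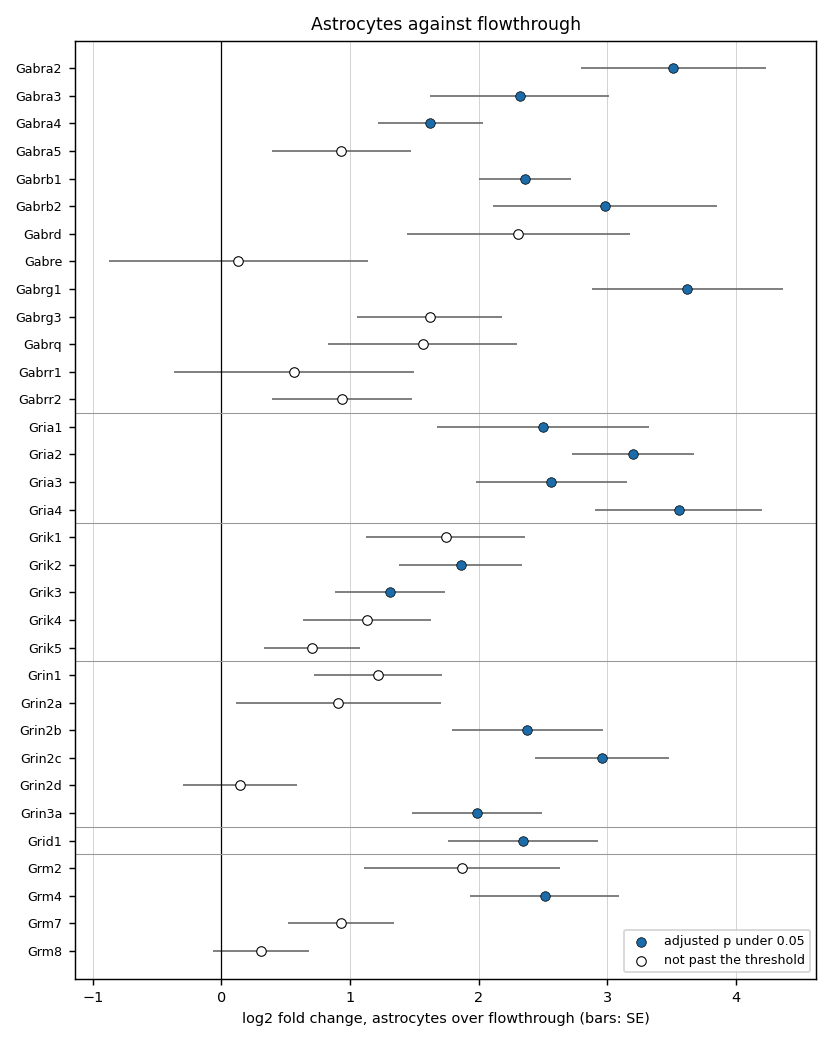
Points give the log2 fold change of isolated astrocytes over flowthrough for 33 tested subunit genes, with bars of 1 SE, and filled points passed an adjusted p under 0.05. All 33 points lie to the right of 0, from 0.13 for Gabre to 3.62 for Gabrg1, and the 17 filled ones reach down to 1.31 for Grik3.

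Among the GABA-A subunits, 9 of 16 tested were higher in astrocytes, and their summed CPM was 199 ± 71.1 (SD, n = 8) in astrocytes against 33.9 ± 28.5 (SD, n = 4) in flowthrough, where the mean was 20.4 without WT 202. The most changed was Gabrg1, which encodes the gamma1 subunit, a form known from glia. It had 88.2, 87.0 and 23.4 CPM in WT astrocytes, 91.1, 56.3, 31.0, 69.9 and 16.5 CPM in aKO astrocytes, 0.764 and 16.7 CPM in WT flowthrough and 3.29 and 0.636 CPM in aKO flowthrough. Flowthrough WT 202 stood with the lowest astrocyte libraries, aKO 222 and WT 265, and the other 3 flowthrough libraries were below all 8. The log2 fold change was 3.62 (SE 0.74, adjusted p = 0.00320 by the quasi-likelihood test of edgeR, Benjamini-Hochberg adjusted), and it was 5.29 without flowthrough WT 202 and 4.36 without flowthrough aKO 203.

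Gabrg1 lies on chromosome 5 in a cluster with Gabra2, Gabra4 and Gabrb1, within 1.39 Mb at chr5:70751047-72138389 of GRCm38, and all 4 genes of this cluster were higher in astrocytes. Gabra2, encoding the alpha2 subunit, had 10.7, 18.3 and 10.3 CPM in WT astrocytes, 16.4, 7.92, 8.10, 17.2 and 13.4 in aKO astrocytes, 0.180 and 4.78 in WT flowthrough and 0.743 and 0.0606 in aKO flowthrough, with no overlap between fractions. Its log2 fold change was 3.52 (SE 0.72, edgeR adjusted p = 0.00326), and 5.30 without flowthrough WT 202 or 4.80 without flowthrough aKO 203. Gabrb1, encoding the beta1 subunit, had 47.3, 18.9 and 25.02 CPM in WT astrocytes, 36.5, 57.2, 22.1, 49.8 and 17.0 in aKO astrocytes, 3.19 and 6.87 in WT flowthrough and 6.74 and 4.48 in aKO flowthrough. The lowest astrocyte library, aKO 222, was well above the highest flowthrough library, and the log2 fold change was 2.36 (SE 0.36, edgeR adjusted p = 2.29e-04). Gabra4, whose alpha4 subunit occurs in receptors outside synapses, changed less. It had 29.7, 33.4 and 11.1 CPM in WT astrocytes, 45.9, 32.6, 23.5, 33.0 and 10.9 in aKO astrocytes, 4.54 and 14.1 in WT flowthrough and 6.94 and 4.79 in aKO flowthrough, and flowthrough WT 202 lay above astrocyte libraries WT 265 and aKO 222. Its log2 fold change was 1.63 (SE 0.41, edgeR adjusted p = 0.0113), and the call was lost without flowthrough WT 201 (adjusted p = 0.0779) or aKO 205 (adjusted p = 0.0594).

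The promoters of these 4 clustered genes differ in base composition between the windows shown, and a stretch of each is given for that reason. RefSeq windows of GRCm38.p6, from 250 bases before to 50 bases after an annotated start, were matched for 28 of the 42 subunit genes. In the 250 bases before the start, Gabra2 held 18 CpG dinucleotides, Gabra4 12, Gabrb1 6 and Gabrg1 1. Gabrb1 has a second window, at chr5:71657671-71657970, with 18, whose bases after the start were not found in transcripts of Gabrb1 and which is not shown. The median over all 32851 windows was 6 CpG. The 120 bases before the start are given 5′ to 3′ on the gene's strand, with CpG in capitals, for Gabrg1 at chr5:70842618-70842737 (minus strand), Gabra2 at chr5:71095850-71095969 (minus), Gabra4 at chr5:71658309-71658428 (minus) and Gabrb1 at chr5:71699812-71699931 (plus).
Gabrg1: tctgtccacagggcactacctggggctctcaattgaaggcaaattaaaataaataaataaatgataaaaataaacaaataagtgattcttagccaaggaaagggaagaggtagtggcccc
Gabra2: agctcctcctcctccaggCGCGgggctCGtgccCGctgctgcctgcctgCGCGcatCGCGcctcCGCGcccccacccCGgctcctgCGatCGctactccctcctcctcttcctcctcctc
Gabra4: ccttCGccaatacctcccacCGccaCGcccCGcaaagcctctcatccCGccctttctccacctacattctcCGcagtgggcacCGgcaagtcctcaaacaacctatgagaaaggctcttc
Gabrb1: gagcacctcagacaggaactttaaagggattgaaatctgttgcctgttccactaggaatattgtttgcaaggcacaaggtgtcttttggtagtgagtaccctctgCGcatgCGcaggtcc

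The shown stretch of Gabrg1 holds 0 CpG and that of Gabra2 holds 13, and both genes were higher in astrocytes, with the log2 fold changes given above. The E-box CACGTG, the palindromic motif bound by BMAL1 with CLOCK, was also searched for (it reads the same on both strands), and 7.15% of all windows held it. Among the 35 windows of the 28 matched subunit genes it was found in 1, that of Grin1, which encodes the NMDA subunit GluN1. That promoter held 2 copies, 181 and 85 bases before the start, in capitals in the stretch at chr2:25319247-25319388 (minus strand) shown here because it is the only match.
Grin1: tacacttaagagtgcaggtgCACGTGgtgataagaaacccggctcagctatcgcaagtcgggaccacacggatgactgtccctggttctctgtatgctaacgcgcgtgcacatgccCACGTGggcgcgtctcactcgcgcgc

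Grin1 itself had 2.01, 2.27 and 1.12 CPM in WT astrocytes and 1.65, 1.65, 3.13, 3.96 and 3.57 CPM in aKO astrocytes, ranges that overlapped. Its log2 fold change between genotypes was 0.57 (SE 0.52, edgeR adjusted p = 0.9997). The exons of Grin1 share 1307 bases with the antisense gene Grin1os, and the counting may not have used strand, since no source used here gives that setting, which leaves this count uncertain.

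Gabrb2, encoding the beta2 subunit of the common synaptic receptors of neurons, was higher in astrocytes as well. The astrocyte libraries had 0.517 to 5.00 (median 1.05) CPM of Gabrb2, and flowthrough WT 201, WT 202, aKO 203 and aKO 205 (the order kept below) had 0, 0.261, 0.371 and 0.424 CPM, so that the fractions did not overlap. The log2 fold change was 2.98 (SE 0.87, edgeR adjusted p = 0.0265). The call was lost without flowthrough aKO 205 (adjusted p = 0.0882), flowthrough WT 201, flowthrough aKO 203 or astrocyte WT 202, and the log2 fold change was 5.61 without flowthrough WT 202.

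Gabra3, for the alpha3 subunit, also passed. It had 2.44 to 10.2 (median 5.16) CPM over astrocytes and 0.360, 3.79, 0.891 and 0.151 CPM over flowthrough, with overlap, and a log2 fold change of 2.32 (SE 0.70, edgeR adjusted p = 0.0302). The call was lost without flowthrough WT 201, flowthrough aKO 205 or astrocyte WT 202, and in the other alternatives named above. For Gabra3 the log2 fold change was 3.49 without flowthrough WT 202 and 3.13 without flowthrough aKO 203. Gabra3 lies with Gabre and Gabrq at chrX:72255999-72842602, where 1 of 3 genes passed, and at chr4:33062999-33163588 the rho subunit genes Gabrr1 and Gabrr2 lie together, where 0 of 2 passed. Gabrd, whose delta subunit is typical of extrasynaptic receptors, had 3.22 to 17.3 (median 4.58) CPM in astrocytes and 0, 3.11, 1.60 and 0.273 CPM in flowthrough without overlap, but missed the threshold at a log2 fold change of 2.31 (SE 0.87, edgeR adjusted p = 0.0802). Gabrg3, Gabra5, Gabrq, Gabrr1, Gabrr2 and Gabre had log2 fold changes from 0.13 to 1.62 and did not pass.

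All 4 AMPA receptor genes were higher in astrocytes, and their summed CPM was 311 ± 134 (SD, n = 8) against 47.3 ± 59.5 (SD, n = 4) in flowthrough, where the mean was 18.6 without WT 202. Gria2 encodes GluA2, the subunit whose edited form keeps AMPA receptors impermeable to calcium. It had 118, 65.8 and 74.7 CPM in WT astrocytes, 77.6, 143, 47.9, 82.5 and 36.4 in aKO astrocytes, 2.54 and 13.6 in WT flowthrough and 10.2 and 3.54 in aKO flowthrough, a log2 fold change of 3.20 (SE 0.48, edgeR adjusted p = 2.03e-04). The lowest astrocyte library, aKO 222, lay well above the highest flowthrough library, WT 202. Gria4, encoding GluA4, which is prominent in the cerebellum and in Bergmann glia, had 19.3, 68.5 and 20.0 CPM in WT astrocytes, 40.7, 25.4, 35.0, 55.7 and 20.4 in aKO astrocytes, 0.562 and 9.04 in WT flowthrough and 1.95 and 1.12 in aKO flowthrough, a log2 fold change of 3.56 (SE 0.65, edgeR adjusted p = 0.00127). Gria3, for GluA3, had 5.79 to 18.1 (median 10.1) CPM over astrocytes and 0.944, 4.68, 1.86 and 0.242 CPM over flowthrough, a log2 fold change of 2.57 (SE 0.59, edgeR adjusted p = 0.00642). The fractions did not overlap for these 3 genes. Without flowthrough WT 202 the log2 fold changes were 3.95 for Gria2, 3.27 for Gria3 and 5.01 for Gria4, and without flowthrough aKO 203 it was 3.54 for Gria3.

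Gria1, encoding GluA1, was the most abundant of the 42 genes per length in both fractions, with 30.4 ± 18.5 RPKM (reads scaled to library total and gene length, SD, n = 8) for astrocytes and 5.74 ± 8.08 RPKM (SD, n = 4) for flowthrough. It had 92.6, 334 and 69.8 CPM in WT astrocytes, 326, 146, 115, 283 and 100.3 CPM in aKO astrocytes, 2.09 and 106 CPM in WT flowthrough and 26.8 and 4.00 CPM in aKO flowthrough. Flowthrough WT 202 lay above 3 astrocyte libraries, WT 201, WT 265 and aKO 222, while flowthrough WT 201 had the lowest level of all. Its log2 fold change of 2.501 (SE 0.83) passed narrowly (edgeR adjusted p = 0.0488). It was 4.75 without flowthrough WT 202, 3.38 without flowthrough aKO 203, and 1.90 with an adjusted p of 0.124 without astrocyte WT 202. The call of Gria1 was also lost when any one of astrocyte WT 265, astrocyte aKO 203, 205, 221 or 222, or flowthrough WT 201, aKO 203 or aKO 205 was left out.

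Kainate receptor genes were low, at a summed CPM of 16.1 ± 3.60 (SD, n = 8) in astrocytes against 5.81 ± 2.16 (SD, n = 4) in flowthrough, and 2 of 5 were higher in astrocytes. Grik2, encoding GluK2, had 3.18 to 6.70 (median 6.11) CPM over astrocytes and 0.472, 2.54, 1.86 and 0.394 CPM over flowthrough, a log2 fold change of 1.86 (SE 0.48, edgeR adjusted p = 0.0129). Grik3, encoding GluK3, had 2.24 to 4.16 (median 3.50) CPM and 0.517, 1.99, 0.817 and 1.09 CPM, a log2 fold change of 1.31 (SE 0.43, edgeR adjusted p = 0.0435). Neither overlapped between fractions. The call of Grik2 was lost without flowthrough WT 201 or aKO 205, and that of Grik3 also without flowthrough aKO 203, astrocyte WT 202, or astrocyte aKO 203, 205, 221 or 222. The log2 fold change of Grik2 was 2.61 without flowthrough WT 202 and 2.54 without flowthrough aKO 203. Grik1 (log2 fold change 1.74, SE 0.62), Grik4 (1.13, SE 0.50) and Grik5 (0.71, SE 0.37) did not pass. Grik5, whose GluK5 subunit forms channels only together with another kainate subunit, made up the largest mean share of kainate RPKM in both fractions, 42.4% in astrocytes and 59.4% in flowthrough.

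NMDA receptor genes summed to 52.4 ± 11.4 CPM (SD, n = 8) in astrocytes against 10.8 ± 7.12 CPM (SD, n = 4) in flowthrough, and Grin2c, Grin2b and Grin3a were higher in astrocytes, 3 of the 6 tested. Grin2c, encoding GluN2C, a subunit typical of cerebellar granule neurons and also reported in astrocytes, had 9.86, 8.69 and 16.4 CPM in WT astrocytes, 5.45, 33.5, 9.74, 6.66 and 4.87 in aKO astrocytes, 0.517 and 1.83 in WT flowthrough and 1.58 and 1.09 in aKO flowthrough. All 8 astrocyte libraries were above all 4 flowthrough libraries, and aKO 205 was the highest. The log2 fold change of Grin2c was 2.96 (SE 0.52, edgeR adjusted p = 9.48e-04). Grin2b, encoding GluN2B, had 14.5, 20.5 and 28.2 CPM in WT astrocytes, 25.1, 23.6, 24.0, 22.3 and 45.1 in aKO astrocytes, 0.652 and 7.92 in WT flowthrough and 7.18 and 1.39 in aKO flowthrough, a log2 fold change of 2.38 (SE 0.59, edgeR adjusted p = 0.0107). Grin3a, for GluN3A, which lowers calcium entry through NMDA receptors, had 4.39 to 14.2 (median 10.6) CPM and 0.382, 5.25, 2.45 and 1.15 CPM, with overlap, and a log2 fold change of 1.99 (SE 0.50, edgeR adjusted p = 0.0123). The calls of Grin2b and Grin3a were lost without flowthrough aKO 205, and without flowthrough WT 202 their log2 fold changes were 3.64 and 3.33. That of Grin2b was 3.10 without flowthrough aKO 203.

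Grin1, the obligatory subunit of NMDA receptors, did not pass between fractions (log2 fold change 1.22, SE 0.49, edgeR adjusted p = 0.100). Per length, Grin1 had 0.249 ± 0.105 RPKM (SD, n = 8) in astrocytes, below the 2.36 ± 1.87 RPKM of Grin2c and the 1.02 ± 0.359 RPKM of Grin2b. Grin2a (0.91, SE 0.80) and Grin2d (0.14, SE 0.44) did not pass either. Grin2d, encoding GluN2D, had 1.87, 2.35 and 2.61 CPM in WT astrocytes, 1.56, 1.41, 1.95, 1.56 and 3.26 in aKO astrocytes, 0.854 and 2.17 in WT flowthrough and 2.12 and 1.70 in aKO flowthrough, ranges that overlapped.

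Among the delta subunit genes, Grid1 was higher in astrocytes. It had 4.22 to 9.87 (median 7.87) CPM over astrocytes and 0.0899, 2.35, 1.91 and 0.727 CPM over flowthrough, without overlap, and a log2 fold change of 2.35 (SE 0.58, edgeR adjusted p = 0.0105). The call of Grid1 was lost without flowthrough aKO 205 (adjusted p = 0.0638), and without flowthrough WT 202 the log2 fold change was 4.11.

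The 6 genes examined for metabotropic glutamate receptors summed to 28.1 ± 10.01 CPM (SD, n = 8) over the astrocyte libraries, against 7.07 ± 4.75 CPM (SD, n = 4) over flowthrough. Other metabotropic receptor genes were taken out by the rule, so these sums are not totals of the family. Grm4, which was higher in astrocytes and whose receptor is abundant on the terminals of cerebellar granule neurons, had 2.82, 17.1 and 6.02 CPM in WT astrocytes, 14.3, 7.61, 9.53, 10.1 and 5.61 in aKO astrocytes, 0.539 and 3.61 in WT flowthrough and 1.24 and 0.697 in aKO flowthrough. Astrocyte WT 201 was below flowthrough WT 202, the only overlap. The log2 fold change of Grm4 was 2.52 (SE 0.58, edgeR adjusted p = 0.00669). Leaving out flowthrough WT 202 gave 3.40. Grm2, Grm7 and Grm8 had log2 fold changes of 1.87, 0.93 and 0.31 and did not pass. Exons of Grm2 share 470 bases with Gm28111.

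The make-up of the AMPA receptors and of the GluN2 subunits of NMDA receptors, taken per length as a share of the summed RPKM, is given as a description with no test. Of AMPA subunits Gria1 held 58.6% ± 12.2 (SD, n = 8) in astrocytes against 59.4% ± 19.7 (SD, n = 4) in flowthrough, and Gria2 held 26.8% ± 13.8 and 27.4% ± 14.4. Within GluN2 subunits, Grin2c held 57.3% ± 16.5 in astrocytes and 34.0% ± 2.04 in flowthrough, and Grin2d held 10.5% ± 3.78 and 42.0% ± 7.88. The Grin2d share was at most 16.2% in astrocytes and at least 33.9% in flowthrough. Astrocyte libraries were not uniform: Grin2b held 53.1% in aKO 222, where Grin2c held 28.2%, and 12.1% in aKO 205, where Grin2c held 84.7%.

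**Figure D3:**
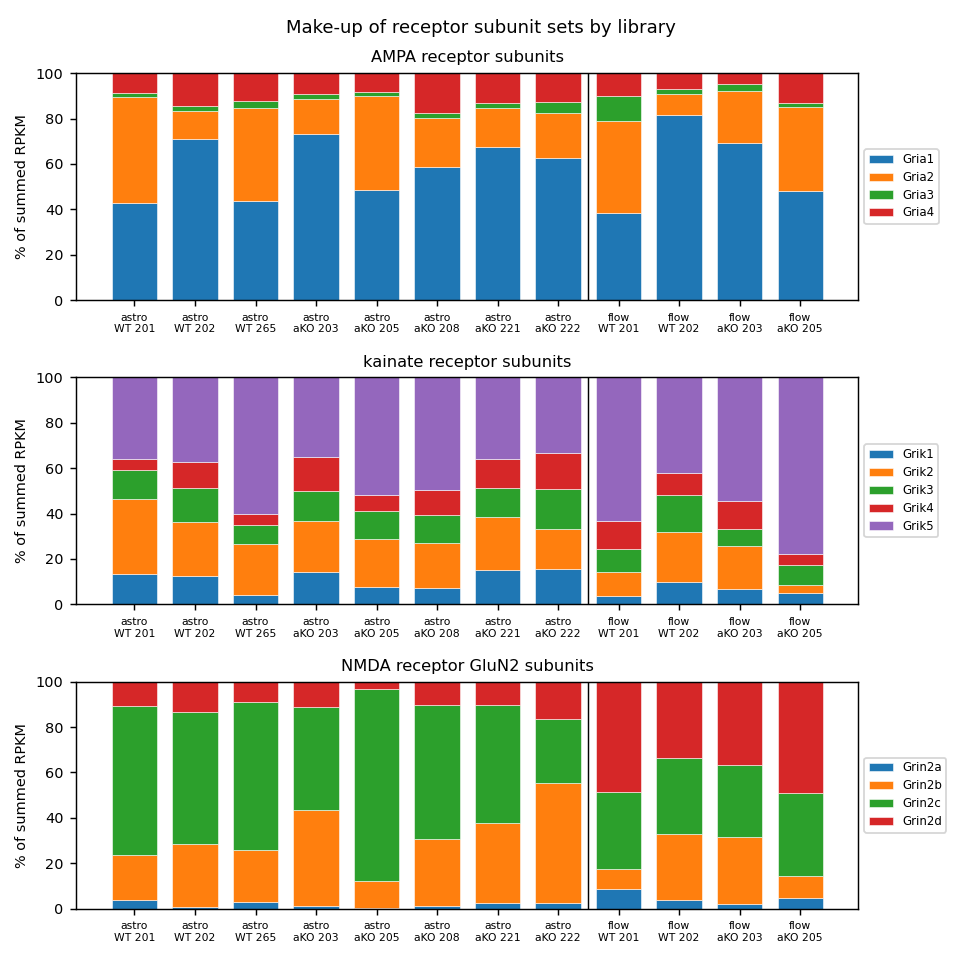
Stacked bars give, for each of 12 libraries, the share of summed RPKM held by each AMPA, kainate and GluN2 subunit gene, astrocytes to the left of the line and flowthrough to the right. The share of Grin2d is larger in the 4 flowthrough libraries than in the 8 astrocyte libraries.

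In isolated astrocytes, the question named by the design is whether aKO and WT differ. Of 37 subunit genes tested in the 8 astrocyte libraries (Gabre also failed the filter here), 0 were called by the quasi-likelihood test of edgeR, Benjamini-Hochberg adjusted, where 0.0211% of all 18950 genes tested were called higher in aKO, 0.00528% lower and 0.0264% in either direction. An unadjusted p under 0.05 was reached by 0 of the 37, against 1.58% of all genes. In no gene of the 37 did the groups separate, against 1.07% of all genes with every aKO library higher and 0.343% with every aKO library lower. DESeq2 also called 0, with 0 at an unadjusted p under 0.05, and limma voom called 0, with 1 (Gabrr1) at an unadjusted p under 0.05. Estimates were above 0 for 22 genes and below 0 for 15 (above 0 for 53% of all genes), ran from -1.66 to 0.73 on the log2 scale, and were within 0.5 of 0 for 32 genes. The standard errors ran from 0.32 to 0.91 with a median of 0.48. Counting library 202 as aKO gave 0 calls and 4 genes at an unadjusted p under 0.05 (4 of 38, or 10.5%, against 4.04% of all genes), among them Gria1, Grik4 and Grm4, and 28 of 38 estimates above 0 (53% of all genes). Over the left-out libraries, between 16 and 26 subunit genes had estimates above 0, where 50.3% to 56.2% of all genes did.

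**Figure D4:**
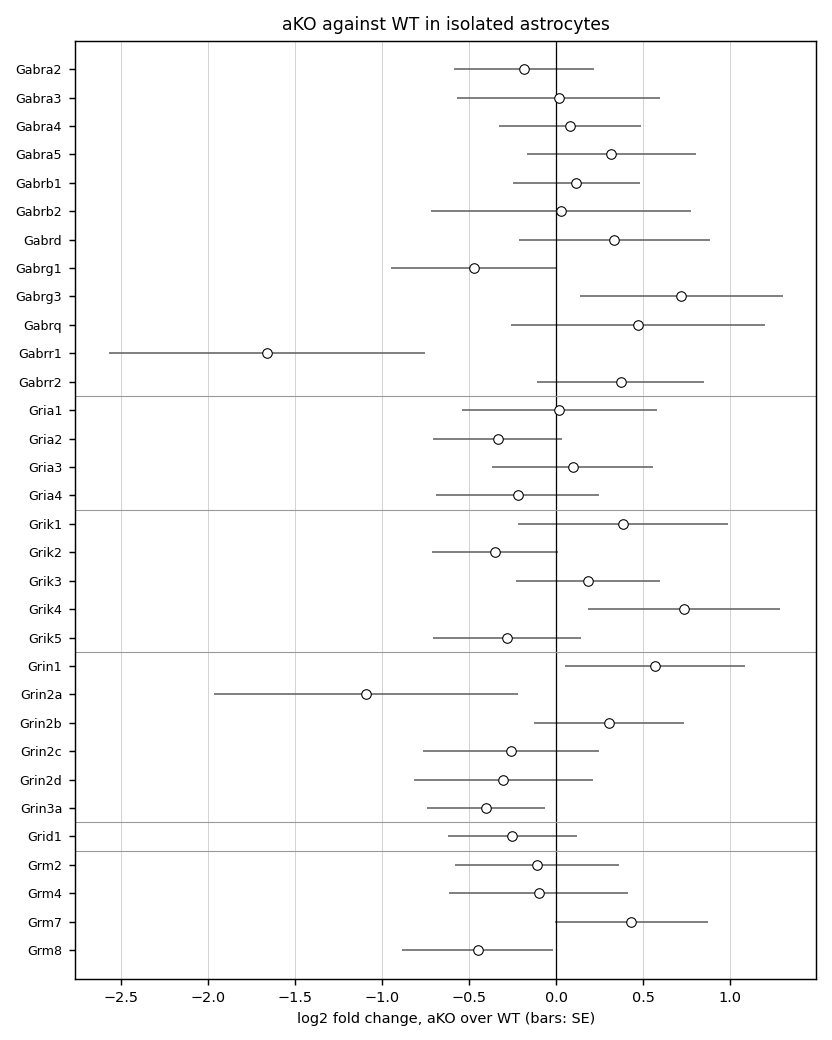
Points give the log2 fold change of aKO over WT in isolated astrocytes for 32 tested subunit genes, with bars of 1 SE, and no point passed the test. The points run from -1.66 for Gabrr1 to 0.73 for Grik4, and 27 of them lie within 0.5 of 0.

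The 4 genes with the smallest p in this comparison were Gabrr1, Grik4, Grin2a and Gabrg3. Gabrr1, a rho subunit best known from the retina, had 1.10, 0.560 and 0.120 CPM in WT astrocytes and 0.367, 0.214, 0.345, 0.0600 and 0 CPM in aKO astrocytes, a log2 fold change of -1.66 (SE 0.91). Grin2a, for GluN2A, had 0.606, 0.107 and 0.723 CPM in WT and 0.138, 0.0611, 0.201, 0.300 and 0.435 CPM in aKO (-1.09, SE 0.87). Both genes were near the lower limit of what was counted, and their groups overlapped. Grik4 had 0.638, 1.79 and 0.964 CPM in WT and 3.12, 1.65, 1.32, 2.46 and 2.04 CPM in aKO (0.73, SE 0.55). Gabrg3 had 1.45, 0.907 and 2.53 CPM in WT and 1.97, 3.24, 1.18, 3.03 and 4.96 CPM in aKO (0.72, SE 0.58). The edgeR adjusted p was 0.9997 for each of the 4. Among the abundant genes, Gabrg1 had a log2 fold change of -0.47 (SE 0.48), Gria2 -0.34 (SE 0.37), Gria1 0.02 (SE 0.56) and Gabrb1 0.12 (SE 0.36). Markers of Bergmann glia summed to between 0.0236% and 0.0497% of counts in WT astrocytes and between 0.117% and 0.250% in aKO astrocytes. The 3 markers went different ways, with log2 fold changes of 2.66 (SE 0.60) for Fabp7, 0.56 (SE 0.37) for Gdf10 and -0.82 (SE 0.39) for Hopx, and 0 of the 3 were called. Whether this marker difference bears on the receptor levels was not tested.

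In flowthrough, 0 of 38 subunit genes were called between aKO and WT by edgeR with Benjamini-Hochberg adjustment, as were 0% of all genes. An unadjusted p under 0.05 was reached by 1 of the 38, Gabra2 (2.63%, against 3.96% of all genes), by 2 with DESeq2 (Gabra2 and Grik5, against 5.76% of all genes) and by 0 with limma voom (2.86%). Estimates were above 0 for 13 of the 38 (53.2% of all genes), and for 22 with limma voom (54.7%) and 8 with library totals (40.9%). These tallies rest on single libraries. Without flowthrough WT 202, 36 of 41 estimates were above 0 (60.8% of all genes), and without flowthrough WT 201, 7 of 41 (51.3%). Without flowthrough aKO 203, 12 of 41 were above 0 (47.5%), and without flowthrough aKO 205, 19 of 41 (48.7%). Both aKO libraries lay above both WT libraries for Gabrb2 and Grik5, 2 of the 38 (12.4% of all genes), and below them for Grm8, 1 of the 38 (20.3% of all genes). Gabra2 had 0.180 and 4.78 CPM in WT and 0.743 and 0.0606 CPM in aKO. The log2 fold change was -2.24 (SE 1.05). That value rests on WT 202: without it, the estimate turned to 1.34, and without aKO 203 it was -4.88. Gabrg1 (-1.83, SE 1.03) and Gabra3 (-1.64, SE 1.05) turned in the same way, to 1.503 and 0.70. Grik5 had 1.35 and 2.22 CPM in WT and 2.49 and 4.06 CPM in aKO (1.20, SE 0.60). The edgeR adjusted p was 0.804 for these 4 genes, the ones with the smallest p.

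The difference of the genotype effect between fractions was tested in the same fit. Of 38 genes 0 were called (0% of all genes), 27 estimates were above 0 (49% of all genes), and 0 reached an unadjusted p under 0.05 with edgeR, against 2.42% of all genes, 1 with DESeq2 (Grik5, against 3.54%) and 0 with limma voom (2.28%). The tally of estimates above 0 turned without flowthrough WT 202, to 4 of 41 (40.8% of all genes). It was 32 of 41 (50.5%) without flowthrough WT 201, and 33 of 41 (54.5%) without flowthrough aKO 203. In the 8 paired libraries, 17 of 38 estimates were above 0 with the animal as a block (53.2% of all genes) and 24 with none (52.2%). The 4 genes with the smallest p had log2 differences, astrocytes minus flowthrough, of -1.45 (SE 0.73) for Grik5, 2.05 (SE 1.25) for Gabra2, 1.65 (SE 1.27) for Gabra3 and 1.32 (SE 1.07) for Gabrg3, each with an edgeR adjusted p of 0.956. Without flowthrough WT 202, those of Gabra2 and Gabra3 were -1.53 and -0.69, and without flowthrough aKO 203 they were 4.69 and 3.36.

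The astrocyte libraries also differed among themselves. WT 202, aKO 203 and aKO 221 were the 3 highest astrocyte libraries for 10 of the 22 genes called between fractions (among them Gabra2, Gabra4, Gabrb2, Gria1, Gria3, Gria4 and Grm4) and for 13 of the 37 tested in astrocytes, or 35.1%, against 5.13% of all 18950 genes. By title these are 1 WT and 2 aKO libraries, whereas by the genotype field of library 202 all 3 would be knockouts. The same libraries were the 3 highest for the summed pan-neuronal markers, at 0.219%, 0.212% and 0.212% of counts against 0.0563% to 0.105% in the other 5. They were the 3 highest for granule neuron markers (0.0271%, 0.0247% and 0.0269%, others at most 0.0180%), for Purkinje neuron markers (0.0731%, 0.0555% and 0.0689%, others at most 0.0393%) and for astrocyte markers (2.24%, 1.90% and 1.65%, where WT 201 had 1.63%). Excitatory neuron markers had the same 3 highest libraries. Inhibitory neuron markers did not, since aKO 203 (0.0284%) lay below aKO 222 (0.0354%) and WT 265 (0.0294%). Nor did oligodendrocyte markers, where aKO 205 (1.35%) lay above WT 202 (1.28%). No marker of these lists was at 0 in any astrocyte library. Gria2, Gabrb1, Grin2c, Grin3a, Grik2 and Grik3 were instead highest in aKO 205, which had the largest sum of oligodendrocyte precursor markers, 0.0155% against 0.00582% to 0.00877% in the others. Library aKO 205 also had the largest sum of endothelial markers, 0.0579% against 0.0205% to 0.0501%, and the lowest mitochondrial share of the astrocyte libraries, 11.1%. The share of all genes highest in aKO 205 was not counted. This grouping was noticed after the values were seen, and the part of neuronal or precursor RNA in the receptor levels was not tested.

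**Figure D5:**
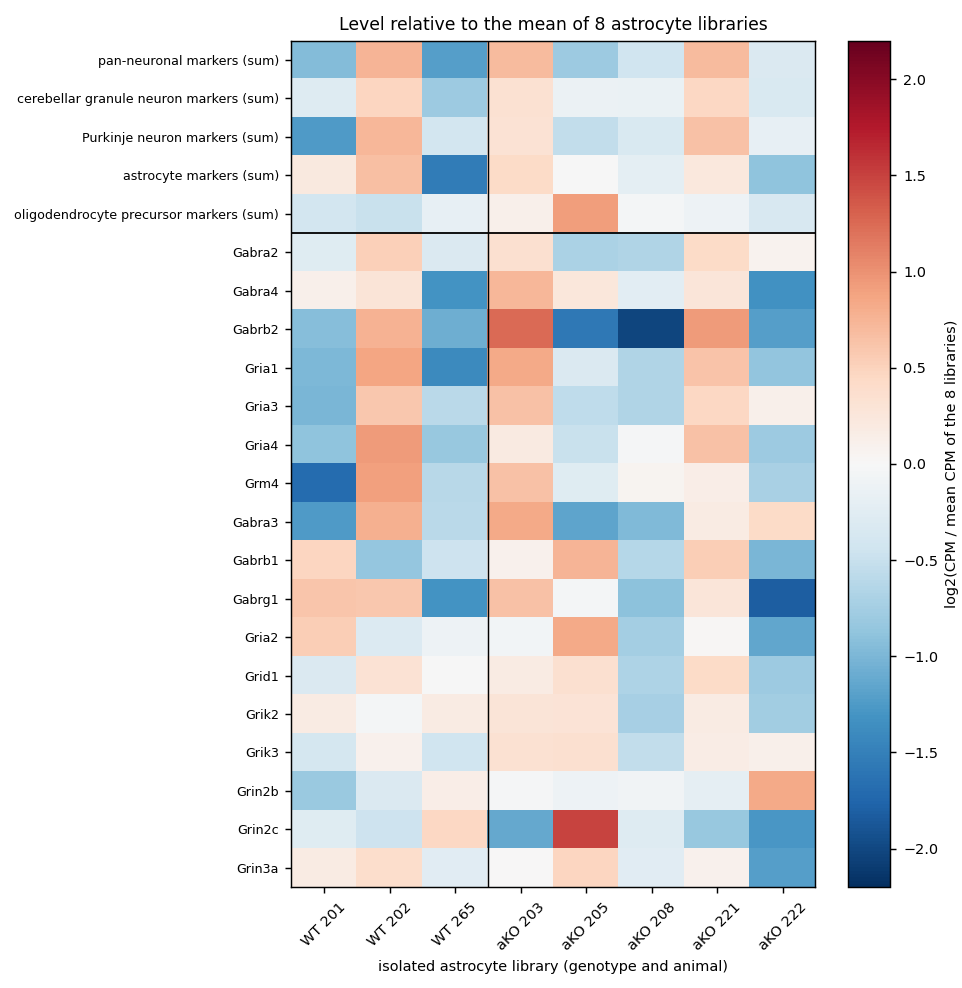
Colours give log2 of the CPM over the mean of the 8 astrocyte libraries, for 5 summed marker lists (top) and for 17 subunit genes called between fractions, with WT to the left of the line. The row of pan-neuronal markers and that of Gria1 are red in WT 202, aKO 203 and aKO 221, while the row of Grin2c is red in aKO 205 and WT 265.

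Neuronal markers moved with the fraction as well. Of the markers tested, 5 of 12 pan-neuronal, 3 of 7 excitatory, 3 of 8 inhibitory, 6 of 9 granule neuron and 3 of 6 Purkinje neuron genes were called higher in astrocytes, and 0 of these lists' genes were called lower. The median log2 fold change was 1.74 for the pan-neuronal list and 2.45 for the astrocyte list, on either side of the 1.93 of the receptor genes. Oligodendrocyte precursor markers summed to 0.00816% ± 0.00311 (SD, n = 8) and 0.00301% ± 0.000835 (SD, n = 4), with 3 of 8 called higher. Flowthrough WT 202, the flowthrough library richest in receptor transcripts, was also the one with the highest sums of astrocyte markers (1.10%) and pan-neuronal markers (0.0847%). It was the highest flowthrough library for oligodendrocyte markers (0.669%) and oligodendrocyte precursor markers (0.00401%) too. The part of these cell types in the difference between fractions was not tested.

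Genes whose products work with these receptors followed unevenly. Of 31 genes for glutamate receptor auxiliary and scaffold proteins, 10 were higher in astrocytes and 0 lower, with a median log2 fold change of 1.60. They included the AMPA receptor auxiliary subunits Cacng5 (3.46, SE 0.64, edgeR adjusted p = 0.00135), Shisa9 (3.07, SE 0.63, edgeR adjusted p = 0.00300) and Cacng4 (1.63, SE 0.43, edgeR adjusted p = 0.0147), and Cbln3 (3.66, SE 0.84, edgeR adjusted p = 0.00687), a cerebellin that is also a granule neuron marker. Of 9 GABA-A receptor partners 2 were higher, among them Nlgn2, the adhesion protein of inhibitory synapses (1.04, SE 0.30, edgeR adjusted p = 0.0236). Nsf (1.33) and Lhfpl4 (1.06) did not pass, at edgeR adjusted p of 0.0542 and 0.0722, and the median of the 9 was 0.75. Among 6 tested GABA-B and glycine receptor genes 4 were higher: Glrb (2.21, SE 0.35), Gabbr1 (1.29, SE 0.34), Gabbr2 (2.25, SE 0.60) and Glra2 (2.45, SE 0.71). Leaving out flowthrough aKO 205 ended the calls of Cbln3, Cacng4, Gabbr1, Gabbr2 and Glra2, and leaving out flowthrough WT 201 those of Cacng4, Nlgn2, Gabbr1 and Glra2. Without astrocyte WT 202 the calls of Nlgn2 and Glra2 were lost, and without flowthrough aKO 203 that of Nlgn2. Those of Cacng4, Nlgn2, Gabbr2 and Glra2 were also lost in the 8 paired libraries with no block. Without flowthrough WT 202 the log2 fold changes were 5.23 for Cacng5, 5.32 for Shisa9, 2.46 for Cacng4, 5.89 for Cbln3 and 3.79 for Gabbr2. Without flowthrough aKO 203 they were 5.19 for Glra2 and 3.10 for Gabbr2, and without astrocyte WT 202 that of Cbln3 was 2.90. Between genotypes, 0 genes of these lists were called in either fraction.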

How the data were processed

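RNA-seq was analysed for 12 libraries of 8 mice, grouped by title. The submitters' processing notes name GRCm38 and the tools STAR 2.5.1a, featureCounts 1.4.6-p5, bcl2fastq and Subread. The annotation release, strand setting and handling of reads with several matches are not given in the sources used here. The deposited files give each gene's read count, with the CPM and RPKM that the authors computed from it. The deposited CPM equals the count over the file's total. Symbols came from GENCODE vM21 for 40254 of 41388 identifiers.

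Tests ran on the counts in R 4.3.3 with edgeR 4.0.16 (quasi-likelihood, robust, TMM, filterByExpr with minimum count 10 and minimum total 15). P-values are two-sided, adjusted by Benjamini-Hochberg over every gene tested and called under 0.05. SE is the absolute log2 fold change over the square root of F. The aKO effect in astrocytes used the 8 astrocyte libraries. Fraction effects (genotypes weighted equally), the aKO effect in flowthrough and the difference of effects used 1 fit of 12 libraries in 4 groups, so the last 2 comparisons share flowthrough libraries, and the first and the last share astrocyte libraries. The scripts were tested on simulated data. RPKM was used to compare genes within a library, and its means and shares are described by fraction with no test.

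Same-numbered libraries come from 1 brain. Their deviations from group means correlated across 15646 genes at 0.0303, 0.540, 0.209 and 0.528 for animals 201, 202, 203 and 205. The members and lists were chosen with earlier results of these data known. Some genes are not reported here or drawn in the figures, though counts and sums over the genes include them. The other members are named, with full statistics for those past the threshold or, where none passed, for the 4 with the smallest p, and up to 4 genes of each partner list. Grin1 and the 4 abundant genes in the genotype comparison were added after their values were seen. Alternative tests were DESeq2 1.42.0, limma 3.58.1 voom with sample weights, an animal block and all libraries in 1 fit. Other alternatives were DESeq2's size factors, library totals, no count filter, no mitochondrial genes or Ttr, and each library left out. Astrocyte library 202 was also counted as aKO, with flowthrough 202 kept as WT. Leaving out aKO 222 and WT 265 was added after seeing the data. Nothing in the labels gives a sequencing batch.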

Additional observations from a re-analysis of the deposited data

Results flagged for a closer look

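Among 44 tests for a single library far from the others of its group, 2 stood out, where chance flags about 1 in 20 groups. In aKO astrocytes, Grin2b had 45.1 CPM in library 222 against 22.3 to 25.1 CPM in the other 4. Grin2c had 33.5 CPM in aKO astrocyte library 205 against 4.87 to 9.74 CPM in the other 4. Each was marked because the gap between the highest library and the next was most of the range of the group.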

How the results depend on the processing

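Between fractions, 0 genes were lower in any alternative, and the number of subunit genes called higher was 20 with DESeq2's size factors (where 7.92% of all genes were called higher, against 8.51% in the main analysis), 24 with library totals (11.1%), 25 with DESeq2 (12.7%) or with no filter (7.42%), 21 with limma voom (7.59%), 19 with library 202 as aKO (6.81%) and 21 without mitochondrial genes and Ttr (8.23%). It ranged from 9 to 26 when single libraries were left out (2.7% to 10.4% of all genes), and was 23 without aKO 222 and WT 265 (12.3%). The replicate block gave 25 (15.9%), and the same 8 libraries with no block 14 (7.67%). Scaling by library totals moved the median of all genes from 0.07 to 0.34 and the higher share of all calls from 50% to 63.3%. Under it, as under the 0.07, 38 of 38 subunit estimates were above 0. With limma voom 36 of 38 were above 0 (52.8% of all genes), and with no filter 41 of 42 (57.9%). In the 8 paired libraries it was 36 of 38 with the block (54.2%) and 36 of 38 with none (53.2%). The 22 positive estimates between genotypes in astrocytes (53% of all genes) became 19 with DESeq2's size factors (49.7%). With library totals they became 25 (67.7% of all genes), against a median of all genes of 0.17. No subunit gene was called between genotypes in astrocytes under any alternative. Between genotypes in flowthrough, estimates ran over the left-out libraries from -4.88 to 1.34 for Gabra2, -3.36 to 1.503 for Gabrg1 and -3.34 to 0.70 for Gabra3, and in the difference between fractions from -1.53 to 4.69 for Gabra2 and -0.69 to 3.36 for Gabra3, the reversed ones without flowthrough WT 202. A flowthrough group left with 1 library was assumed to vary like the other groups. With totals without mitochondrial genes and Ttr, summed CPM in astrocytes rose to 280.7 for GABA-A, 22.98 for kainate, 75.8 for NMDA, 40.5 for metabotropic and 896.5 for all subunit genes, and to 8.02 for kainate in flowthrough, because the denominator is smaller. The flowthrough groups hold 2 libraries each. The count filter ran over all 12 libraries together and left 4 of the 42 genes untested. A gene low in flowthrough could pass that filter on its astrocyte counts. P-values between genotypes in astrocytes measure the spread between animals. The other main comparisons used 12 libraries with no animal term, though 4 animals gave both fractions. Their p-values measure the spread between libraries.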
